A study of Mus musculus with 24 samples.

Results

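Tumours given hydroxychloroquine alone were compared with control tumours across all genes of a mouse microarray. The comparison used 12 of the 24 arrays of a study of pancreatic ductal adenocarcinoma, 6 per group, chosen by the treatment named in the sample titles. Its 19505 genes were those with a symbol in the platform's annotation, each represented by the probe set with the highest mean. One group received hydroxychloroquine, and the control group a treatment called vector in the labels. The remaining 12 arrays came from tumours given BMS754807, an inhibitor of the insulin-like growth factor 1 and insulin receptors, with hydroxychloroquine (the combination) or without it. Strain, age, tumour model, dose and duration are not given in the labels used here, nor is it said whether each tumour came from its own animal, so errors and p-values measure the spread between these samples, which may be technical in part. RNA came from whole homogenized tumour, and 250 ng of it was labelled for each Clariom S array, a design that reports each gene as log2 fluorescence.

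Hydroxychloroquine is a weak base that enters acidic compartments, is trapped there and raises their pH. Lysosomal enzymes then work poorly and autophagosomes, the vesicles that carry cell contents to the lysosome, are not broken down. The same acidic compartments hold the nucleic acid sensing Toll-like receptors, which must be cut by lysosomal proteases before they can signal, and whose signals lead through Irf7 to type I interferon. Interferon in turn raises a large set of antiviral genes in the cells it reaches. Pancreatic ductal tumours are known for heavy use of autophagy and for a dense stroma of fibroblasts and collagen.

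Markers of ductal epithelium gave signal in every tumour. Krt8, a keratin of simple epithelia, stood at 16.11 ± 0.10 log2 with hydroxychloroquine and 16.31 ± 0.14 in control (SD, n = 6 each), and the ductal transcription factor Sox9 spanned 15.10 to 15.40 with hydroxychloroquine and 14.65 to 15.23 in control. Signals of different probe sets depend on the probes and were not ranked against each other. Array medians ran from 6.81 to 7.01, and 2 arrays correlated across genes at a median of 0.988, whether of the same group or not. Some tumours carried transcripts of other tissue. The score of skeletal muscle markers, which averages over members how far a tumour lies from the mean of all 24 tumours, was 6.23 in hydroxychloroquine tumour 5 and 3.49 in control tumour 5, and at most 0.36 in the other 10. The B and plasma cell score was 3.34 in hydroxychloroquine tumour 1 and at most 0.23 elsewhere in these groups. Epithelial signal varied as well: the ductal epithelium score ran from -0.80 to 0.75 with hydroxychloroquine and from -0.80 to 0.22 in control. Of 15 measured ductal markers 9 had a higher mean with hydroxychloroquine and 6 a lower one.

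No single gene was separated by hydroxychloroquine at an adjusted p under 0.05 (limma's moderated test, Benjamini-Hochberg over all genes): 0 of 19505, or 0%, passed. Without adjustment 939 genes, 4.81%, had a p under 0.05, of which 474 (2.43%) lay higher with hydroxychloroquine and 465 (2.38%) lower. The 2 groups did not overlap in 30 genes (0.154%), with all 6 hydroxychloroquine tumours above control in 12 (0.0615%) and below it in 18 (0.0923%). The means were higher with hydroxychloroquine in 9747 genes and lower in 9748, each 50%, and the median difference over all genes was 0. With each array set to a common median the median difference became -0.06 and the split of genes at an unadjusted p under 0.05 became 247 higher and 891 lower. The 95% confidence interval of a gene's difference, from the spread pooled over all 24 arrays, reached a median of 0.38 log2 to either side. It reached 0.65 or less in 9 of 10 genes, and differences smaller than it could not be told from that spread. The intervals are not adjusted for the 19505 genes, so larger differences could also miss the threshold. In whole tumour, fewer cells of a type and less RNA per cell cannot be told apart. All genes below are given as values that did not pass, and words such as higher and lower refer to group means.

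The smallest p among higher genes belonged to Stk26, a germinal centre kinase found at the Golgi and in the striatin phosphatase complex (probe set TC0X00000454.mm.2, chromosome X). Its signal ran from 8.0 to 8.79 log2 with a median of 8.46 in hydroxychloroquine tumours, against 6.90 to 7.49 with a median of 7.21 in control tumours. All 6 hydroxychloroquine tumours lay above all 6 controls. The difference was 1.21 ± 0.22 log2 (SE, n = 6 per group; limma adjusted p = 0.239), and it stayed between 1.13 and 1.29 when any 1 of the 12 tumours was left out. Of 16 measured genes of the striatin complex and the germinal centre kinases 7 were higher and 9 lower with a median of -0.03, and the related kinase Stk24 lay at -0.30 ± 0.14. The other 15 members lay between -0.30 and 0.29 log2.

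Angpt1, the secreted ligand of the endothelial receptor Tek, ran from 8.51 to 9.46 log2 (median 8.88) with hydroxychloroquine and from 7.38 to 8.34 (median 7.92) in control. The groups were apart here too, by 1.11 ± 0.24 log2 (SE). Its receptor gene Tek was at -0.27 ± 0.32 and Angpt2, which encodes the competing ligand, at -0.32 ± 0.42, and of 18 measured genes of the VEGF and angiopoietin family 7 were higher and 11 lower. Cth, which makes cysteine from cystathionine, stood at 6.40 ± 0.26 log2 with hydroxychloroquine and 5.55 ± 0.39 in control (SD, n = 6 each), with no overlap and control tumour 2 lowest at 4.78.

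Among the other genes of small p on the higher side were Dkk3, a secreted glycoprotein of the Dickkopf family (0.64 ± 0.17 log2, SE), and Gorasp1, a stacking protein of the Golgi (0.56 ± 0.16). Evc, a ciliary protein of hedgehog signalling, lay at 0.65 ± 0.17 and Cables1, an adaptor of cyclin-dependent kinases, at 0.88 ± 0.20. All 4 had ranges that overlapped between the groups. The rest of the 12 were the zinc finger gene Mzf1, Atf7ip2, Tmem151b, Dcaf12l2 and Fam90a1a, and the differences of the 12 ran from 0.48 to 1.21.

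On the lower side the 12 genes of smallest p had differences of 0.40 to 1.06 log2 in size and adjusted p-values of 0.781 to 0.939. Bend7, which carries a BEN domain, ran from 8.32 to 9.17 (median 8.78) with hydroxychloroquine and from 9.20 to 9.52 (median 9.40) in control, without overlap. Akr1c13, an aldo-keto reductase, spanned 11.95 to 12.31 with hydroxychloroquine and 12.36 to 12.79 in control. Eif4e3, a cap-binding relative of the translation initiation factor Eif4e, spanned 9.51 to 10.24 with hydroxychloroquine and 10.29 to 10.81 in control. In both genes every hydroxychloroquine tumour lay below every control. Trnau1ap, which binds the selenocysteine transfer RNA, was at 9.18 ± 0.21 with hydroxychloroquine and 9.68 ± 0.05 in control (SD, n = 6 each), and Parp4, the poly(ADP-ribose) polymerase of vault particles, was lower by 0.40 ± 0.11 (SE). The others were Msh4, Defb6, Smok3b, Oasl1, Gpha2, Tbx10 and Rnf113a2. Of the 24 genes of smallest p in both directions, 8 had a mean signal below 3.62 log2, the first quartile of all genes. Mzf1, Msh4, Gpha2 and Tbx10 were among them. The same held for 8 of the 30 genes without overlap.

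**Figure D1:**
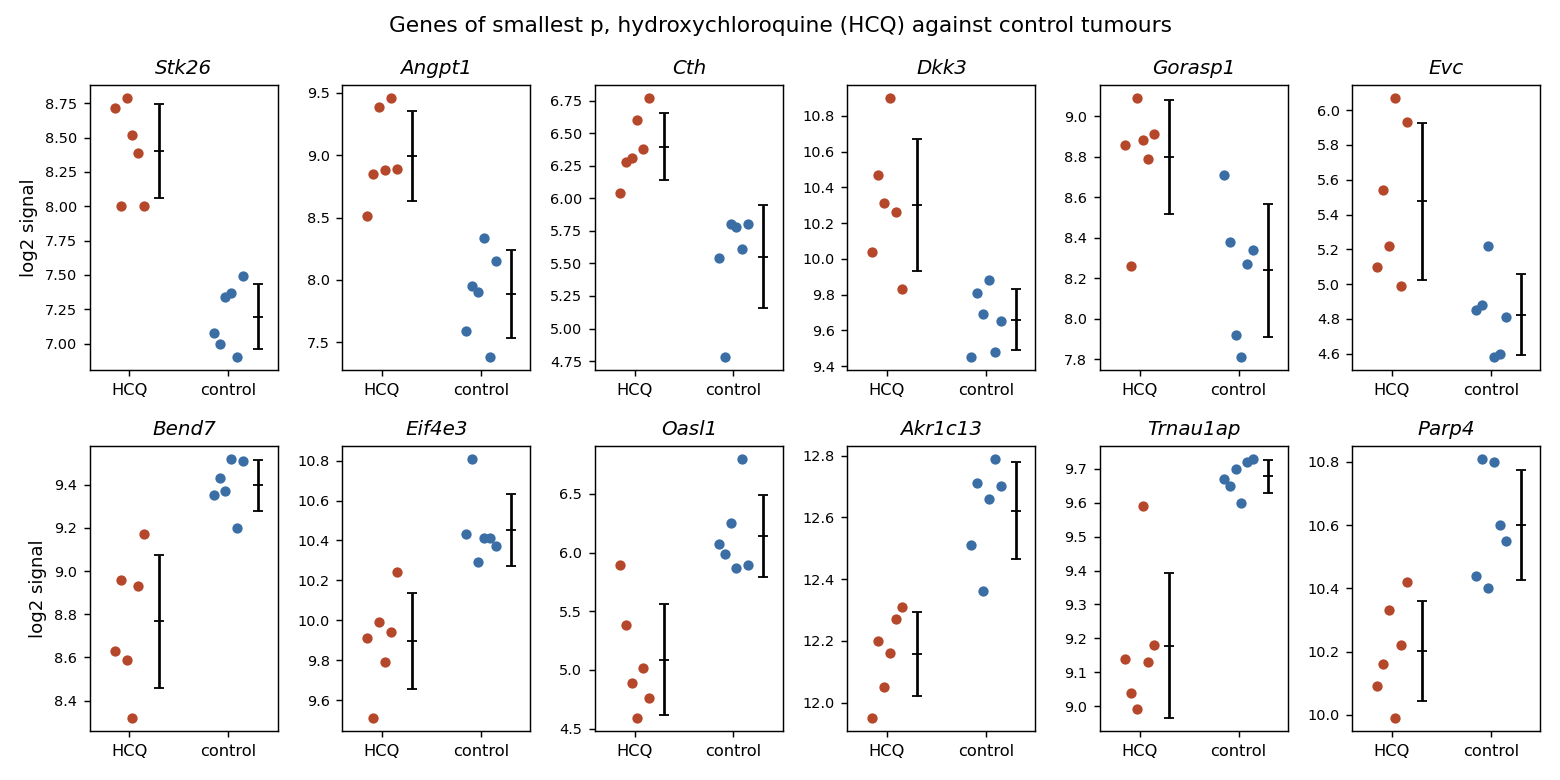
Log2 signal of 12 of the genes with the smallest p, 1 point per tumour, hydroxychloroquine (HCQ) left and control right in each panel, with the mean and SD (n = 6 each) as bars. The 6 upper panels are genes higher with hydroxychloroquine, and Stk26, Angpt1 and Cth show no overlap. The 6 lower panels are genes lower with it, of which Bend7, Eif4e3, Akr1c13 and Trnau1ap show none.

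Interferon-stimulated genes had a lower mean with hydroxychloroquine in nearly every measured member. Of 38 listed effectors 36 were measured, and 35 of them had a lower mean with hydroxychloroquine against 1 higher, with a median difference of -0.35 log2 beside 0 for all genes. At an unadjusted p under 0.05 there were 7 lower members and 0 higher, beside 2.38% and 2.43% of all genes. The members share the same 12 tumours and vary together, so they do not count as separate observations.

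Oasl1, a relative of the antiviral oligoadenylate synthetases that in mouse holds back translation of Irf7, had the smallest p of the list. It ran from 4.59 to 5.89 log2 (median 4.96) with hydroxychloroquine and from 5.87 to 6.80 (median 6.03) in control, and 1 tumour of the first group reached into the range of the second. The difference was -1.06 ± 0.27 log2 (SE, n = 6 per group). Ifit3b and Ifit3, which bind foreign RNA, gave the widest differences, -1.38 ± 0.45 and -1.11 ± 0.44. Ifit3b spanned 6.34 to 8.67 (median 8.19) with hydroxychloroquine and 8.47 to 10.06 (median 9.20) in control, and each hydroxychloroquine tumour lay below the control mean. These genes are near-identical copies, so the array may not fully separate them. The remaining members at an unadjusted p under 0.05 were Oasl2 (-0.91 ± 0.36), the virus tether Bst2 (-0.59 ± 0.25), and Dtx3l (-0.40 ± 0.16) and Parp14 (-0.58 ± 0.25), which act in ADP-ribosylation and ubiquitin signalling. Isg15, a ubiquitin-like modifier, lay at -0.59 ± 0.36.

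The promoters of Ifit3b, Ifit3 and Oasl1 are shown because these genes differed most in the list. The 250 bases before each start come from RefSeq (GRCm38.p6), read 5′ to 3′ on the gene's strand, and capitals mark the interferon-stimulated response element, searched on both strands as GAAA, any 2 bases and GAAA.
Ifit3b, chr19:34607707-34607956, plus strand: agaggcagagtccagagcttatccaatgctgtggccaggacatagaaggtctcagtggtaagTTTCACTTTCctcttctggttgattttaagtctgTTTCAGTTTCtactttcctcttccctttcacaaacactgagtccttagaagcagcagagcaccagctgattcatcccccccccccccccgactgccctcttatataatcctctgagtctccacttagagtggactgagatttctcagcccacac
Ifit3, chr19:34583279-34583528, plus strand: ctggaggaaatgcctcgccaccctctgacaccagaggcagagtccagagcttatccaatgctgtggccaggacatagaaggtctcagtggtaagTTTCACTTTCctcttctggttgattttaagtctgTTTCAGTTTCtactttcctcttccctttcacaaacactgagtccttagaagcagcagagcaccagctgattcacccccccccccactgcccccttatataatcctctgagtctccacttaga
Oasl1, chr5:114922990-114923239, plus strand: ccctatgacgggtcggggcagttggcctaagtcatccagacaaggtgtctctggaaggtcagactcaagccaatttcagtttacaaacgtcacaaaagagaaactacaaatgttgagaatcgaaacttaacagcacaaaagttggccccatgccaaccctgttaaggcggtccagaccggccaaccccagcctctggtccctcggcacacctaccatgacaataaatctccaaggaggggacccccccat

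Ifit3b and Ifit3 each held 2 matches in the same surroundings, and the Oasl1 window held 0 of these letters. Of the 36 measured effectors 24 had a promoter in the RefSeq table, and 10 of these (41.7%) held a match, against 936 of 27025 genes (3.46%) in the whole table. Among the interferon-gamma targets it was 7 of 8. The list was put together from known interferon targets, so a frequent match is a property of the list, and a match is a run of letters and not a measured binding site.

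By tumour, the score of the effector list ran from -0.54 to 0.09 (median -0.25) with hydroxychloroquine and from -0.02 to 0.45 (median 0.17) in control. Hydroxychloroquine tumours 5, 3, 2 and 6 lay below every control, and tumours 1 and 4 (0.07 and 0.09) lay within the control range. Members below the control mean numbered 34, 33, 33 and 28 of 36 in those 4 tumours and 23 and 17 in tumours 1 and 4, against 8 to 27 in the controls. Leaving out any 1 tumour kept 32 to 35 members lower, with medians of -0.43 to -0.31. Markers of macrophages, cells that themselves respond to interferon, had scores of -0.67 to 0.95 with hydroxychloroquine and -0.38 to 1.20 in control, with 8 of 13 members lower and a median of -0.07, which was -0.23 without hydroxychloroquine tumour 4 and 0.18 without control tumour 5. Dendritic cell markers were lower in 7 of 11 (median -0.11). Their lowest member was Bst2, which is also in the effector list, so these 2 lists are not separate. Clec9a, which marks cross-presenting dendritic cells, spanned 2.84 to 3.82 log2 with hydroxychloroquine and 2.55 to 4.68 in control. The part of these cells in the interferon genes was not tested.

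**Figure D2:**
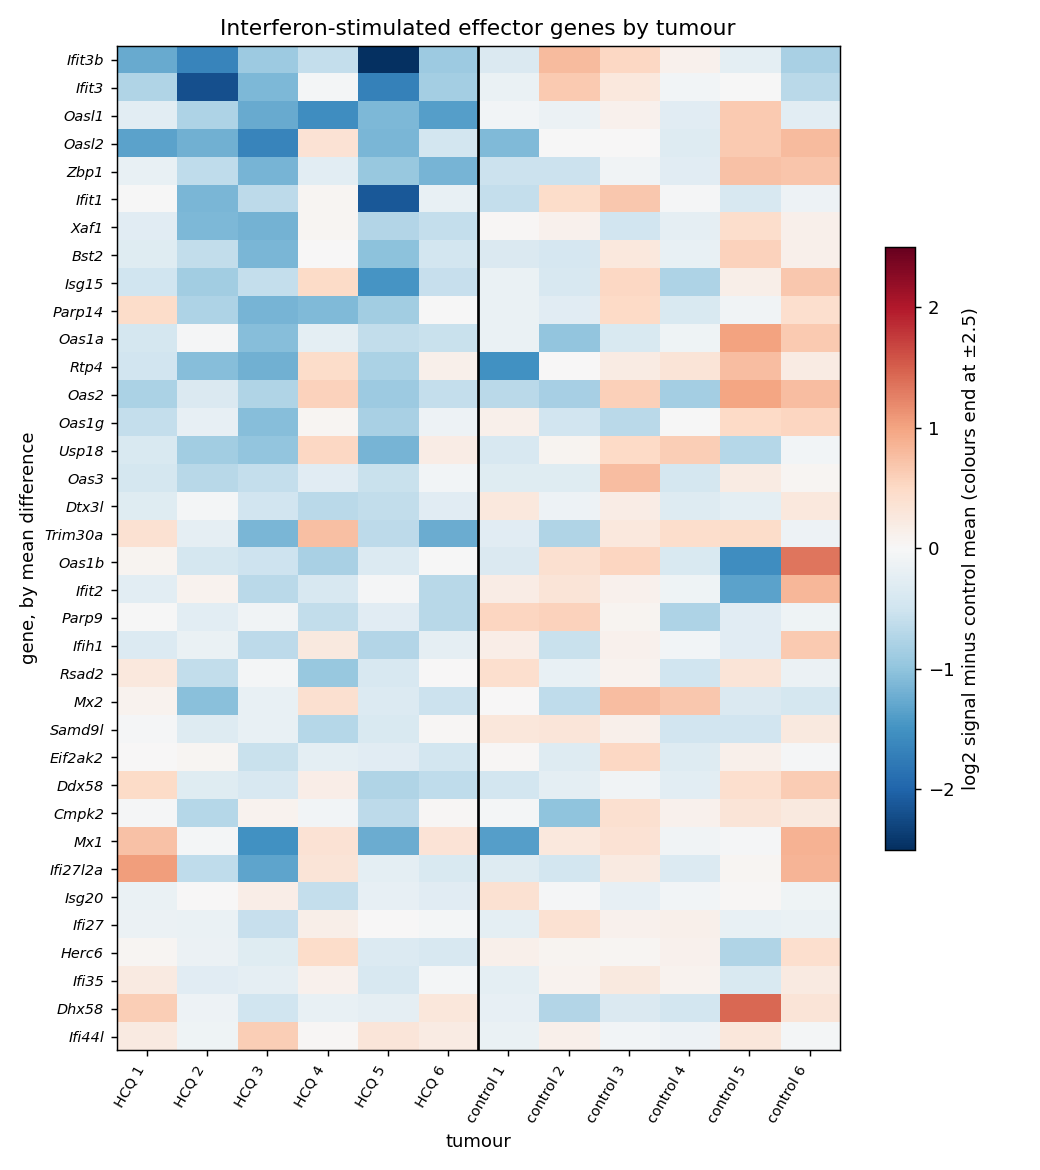
Log2 signal minus the control mean for the 36 measured interferon-stimulated effectors (down the page, ordered by mean difference) in 6 hydroxychloroquine (HCQ) tumours on the left and 6 control tumours on the right of the black line. Blue is below and red above the control mean. Hydroxychloroquine tumours 2, 3 and 5 are blue in 33 or more members, and tumour 4 in 17.

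The factors that make and sense interferon mostly differed little. Irf7, the regulator that drives type I interferon after Toll-like receptor signals, is itself an interferon target. It was the only 1 of 16 measured members at an unadjusted p under 0.05, beside 4.81% of all genes. Its signal ran from 5.12 to 6.27 (median 6.00) with hydroxychloroquine and from 5.53 to 7.52 (median 7.20) in control, a difference of -1.02 ± 0.36 log2 (SE). Irf9 and Stat2, which carry the signal to DNA, were at -0.26 ± 0.14 and -0.28 ± 0.23, and the receptor chains Ifnar1 and Ifnar2 at 0.13 ± 0.11 and -0.10 ± 0.12. Genes of endosomal Toll-like receptor sensing were 6 higher and 7 lower with a median of -0.03. Tlr7, the endosomal receptor for single-stranded RNA, was at 8.0 ± 0.90 with hydroxychloroquine and 8.03 ± 0.92 in control (SD, n = 6 each), and the sign of its difference turned in several settings. The adaptor Slc15a4, a lysosomal transporter needed for this signal, was at 0.25 ± 0.14. Cytosolic nucleic acid sensors were 6 higher and 5 lower, with Mavs at 0.33 ± 0.13.

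Targets of interferon gamma were lower in 14 of 15 with a median of -0.47 log2, and control tumours 5 and 6 stood above the rest. Their scores were 0.62 and 1.24, against -0.62 to 0.15 over the hydroxychloroquine tumours and -0.35 to 0.11 over the other 4 controls. Without control tumour 6 the median was -0.28. Gbp3, a guanylate-binding GTPase, was the only member of the 15 at an unadjusted p under 0.05 (-0.77 ± 0.35), beside 4.81% of all genes. It ran from 6.80 to 7.23 log2 in hydroxychloroquine tumours and from 7.23 to 8.22 in control. Class I antigen presentation genes were lower in 11 of 13, among them H2-K1 (-0.43 ± 0.32) and B2m (-0.26 ± 0.19). Their median was -0.26, which was -0.086 without control tumour 6 and -0.49 without hydroxychloroquine tumour 1. Of the 13, 0 had an unadjusted p under 0.05, beside 4.81% of all genes. Inflammatory cytokines and NF-kB targets were lower in 20 of 27 (median -0.15), with Vcam1 at -0.47 ± 0.25 and Tnfaip3 at -0.45 ± 0.25. Of the 27, 0 had an unadjusted p under 0.05, beside 4.81% of all genes. The median of the 27 was -0.068 without hydroxychloroquine tumour 5, -0.094 without control tumour 5 and -0.26 without hydroxychloroquine tumour 6. The same controls 5 and 6 had the highest class I scores of their group, and the T cell score was 2.04 in hydroxychloroquine tumour 1, 0.65 in control tumour 6 and at most 0.07 in the other 10. The part of these cells in the lists was not tested.

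**Figure D3:**
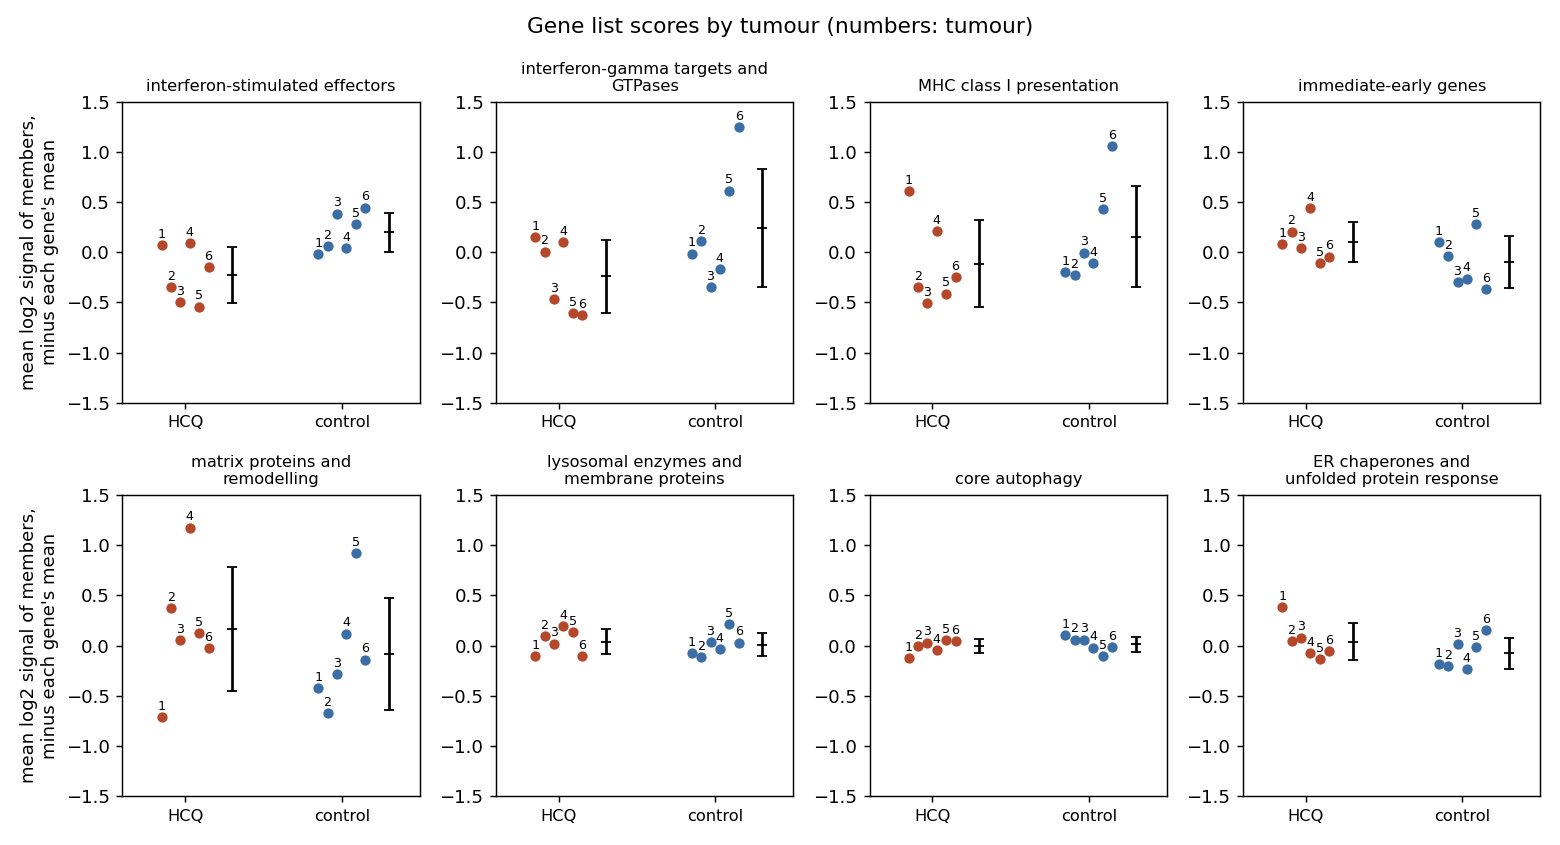
Scores of 8 gene lists by tumour: the mean over members of log2 signal minus each gene's mean over 24 tumours, hydroxychloroquine (HCQ) left and control right, with tumour numbers and the mean and SD (n = 6 each) as bars. For the interferon-stimulated effectors 4 of 6 hydroxychloroquine tumours lie below all controls. The lysosome and autophagy scores stay near 0 in both groups.

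The genes of the compartment in which hydroxychloroquine collects differed little. Of 42 measured lysosomal enzymes and membrane proteins 19 were higher and 23 lower, with a median of -0.02 log2. The 95% confidence interval lay inside 1 log2 to either side of 0 in 40 of the 42 (95.2%, against 91.4% of all genes), and inside 0.5 in 27 (64.3%, against 45.8% of all genes). Lamp1, the main glycoprotein of the lysosomal membrane, was at 15.12 ± 0.19 with hydroxychloroquine and 15.14 ± 0.10 in control (SD, n = 6 each), and the protease gene Ctsb differed by 0.02 ± 0.11 (SE). At an unadjusted p under 0.05 were 2 members of the 42, both higher, beside 2.43% of all genes higher and 2.38% lower. Gaa, the enzyme that breaks down lysosomal glycogen, spanned 13.74 to 14.27 with hydroxychloroquine and 13.29 to 13.72 in control, without overlap (0.37 ± 0.12). Arsb, a sulfatase for glycosaminoglycans, was at 0.37 ± 0.13.

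Subunits of the V-ATPase, the proton pump that acidifies the lysosome, were 7 higher and 10 lower with a median of -0.005. The intervals of all 17 lay inside 1 log2 to either side of 0, as did those of 91.4% of all genes. So did those of all 39 core autophagy genes, of which 18 were higher and 21 lower (median -0.03). Wipi2 recruits the lipidation machinery to the forming autophagosome. It was the only autophagy gene at an unadjusted p under 0.05 (-0.27 ± 0.12), beside 4.81% of all genes. Map1lc3b, whose protein coats autophagosomes, was at -0.14 ± 0.12, and the receptor gene Sqstm1 at 0.07 ± 0.17. Both proteins are known to build up when degradation is blocked, which transcript arrays do not measure. Tfeb, the regulator that raises lysosomal genes, was at 0.10 ± 0.18, and of the 23 genes of its family and of nutrient sensing 12 were higher and 11 lower, with Flcn, which restrains Tfeb, at 0.37 ± 0.16. Cholesterol genes were 9 higher and 10 lower (median -0.01, from -0.12 to 0.13 with 1 tumour left out), and were measured less closely, with 3 of 19 intervals (15.8%) inside 0.5 log2. Of 14 iron genes 9 were lower, and Slc40a1, the iron exporter, was at 0.56 ± 0.22. Among 24 genes of endosomal traffic and lipid storage, evenly split, the recycling regulator Rab11a was at -0.30 ± 0.11.

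Genes of amino acid supply and of protein folding with small p had higher means with hydroxychloroquine, but their lists depended on single tumours. In the list of Atf4 targets and cysteine synthesis 14 of 21 were higher and 6 lower (median 0.10), with Atf4 itself at -0.06 ± 0.14. There were 3 members at an unadjusted p under 0.05, beside 4.81% of all genes. They make amino acids: Cth (described above), Psat1 (0.43 ± 0.19) and Phgdh (0.34 ± 0.16), the last 2 from serine synthesis. The list's score was 0.37 and 0.44 in hydroxychloroquine tumours 1 and 4 and -0.15 to -0.03 in the other 4, against -0.16 to 0.20 in control, and with 1 tumour left out its median ran from 0.012 (without hydroxychloroquine tumour 4) to 0.15. Of 15 endoplasmic reticulum chaperone and unfolded protein response genes 10 were higher (median 0.09), with medians of 0.0067 (without hydroxychloroquine tumour 1) to 0.14 when 1 tumour was left out. The 3 at that threshold were Herpud1 and Syvn1, of the degradation of misfolded proteins, at 0.39 ± 0.13 and 0.34 ± 0.14, and the chaperone partner Sdf2l1 at 0.45 ± 0.20. Herpud1 ran from 14.86 to 15.49 with hydroxychloroquine and from 14.50 to 15.01 in control. Of 13 antioxidant Nrf2 targets 8 were lower, with Ugdh at -0.28 ± 0.10. Replication genes were higher in 18 of 25 (median 0.13, from 0.044 without hydroxychloroquine tumour 1 to 0.20 without hydroxychloroquine tumour 6; Ccne2 0.33 ± 0.15), while G2 and M phase genes stood at 10 higher and 14 lower.

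Immediate-early genes, which growth factors, stress and tissue handling raise within minutes, were higher in 21 of 29 with a median of 0.18. Egr1 did not overlap between the groups, with 12.64 to 13.36 (median 13.01) in hydroxychloroquine tumours and 12.18 to 12.63 (median 12.44) in control (0.61 ± 0.18). The nuclear receptor gene Nr4a1 lay at 9.16 ± 0.40 with hydroxychloroquine and 8.55 ± 0.33 in control (SD, n = 6 each). Klf2, a factor of quiescent lymphocytes and endothelium under flow, was higher by 0.79 ± 0.25 (SE), with hydroxychloroquine tumour 1, the tumour rich in B cell transcripts, at 8.89 and the other 5 at 7.43 to 7.73. The list's median was 0.09 without hydroxychloroquine tumour 4, 0.11 without control tumour 6 and 0.26 without control tumour 1.

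Stromal genes leaned higher but followed single tumours. Fibroblast markers were higher in 10 of 11 (median 0.37), matrix and remodelling genes in 19 of 25 (median 0.28) and collagens in 13 of 18 (median 0.21). Lum, a collagen-binding proteoglycan, ran from 11.21 to 13.86 (median 12.53) with hydroxychloroquine and from 10.57 to 12.31 (median 11.32) in control, a difference of 1.15 ± 0.48. Tnc, a matrix protein of remodelled stroma, was at 0.61 ± 0.27, and Timp3, an inhibitor of matrix proteases, at 0.31 ± 0.12. The fibroblast score was 1.43 in hydroxychloroquine tumour 4 and 0.92 in control tumour 5, and without these tumours in turn the fibroblast median was 0.15 and 0.60. For matrix genes it was 0.13 without hydroxychloroquine tumour 4 and 0.44 without hydroxychloroquine tumour 1. The collagen median was 0.06 without hydroxychloroquine tumour 4, 0.02 without control tumour 2 and 0.12 without control tumour 1, against 0.46 without hydroxychloroquine tumour 1 and 0.49 without control tumour 5. Tgfb3, a TGF-beta ligand, was higher by 0.38 ± 0.12, while its pathway was evenly split (10 higher, 9 lower). Cnn1, a calponin of smooth muscle, was at 7.73 ± 0.79 with hydroxychloroquine and 6.55 ± 0.59 in control (SD, n = 6 each).

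Some of the largest list medians belonged to tissues found in few tumours. All 15 skeletal muscle genes were higher with a median of 1.08, and 0 had an unadjusted p under 0.05, beside 2.43% of all genes higher. Without hydroxychloroquine tumour 5 the median was -0.12, and without control tumour 5 it was 1.65. B and plasma cell genes were higher in 9 of 11 (median 0.45), and without hydroxychloroquine tumour 1 the median was -0.15. All 10 adipocyte genes were lower (median -0.47), with scores of -1.61 to -0.47 in 5 hydroxychloroquine tumours, 2.30 in hydroxychloroquine tumour 1 and -0.78 to 1.14 in control. The adipocyte median was -1.29 without hydroxychloroquine tumour 1 and -0.16 without control tumour 6. Cd163, a scavenger receptor of tissue macrophages, lay at 5.99 ± 0.86 with hydroxychloroquine and 7.24 ± 0.86 in control (SD, n = 6 each), and every hydroxychloroquine tumour was below the control mean, while the other macrophage markers had unadjusted p-values above 0.05.

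Igf1r and Insr, the receptor genes that BMS754807 targets, lay at -0.06 ± 0.16 and 0.08 ± 0.12 with hydroxychloroquine alone. Whether the differences above were also seen between other tumours was asked by setting the combination against BMS754807, which shares no array with the first comparison, only the pooled spread. There 0 of 19505 genes (0%) passed (smallest adjusted p = 0.179), 1679 (8.61%) had an unadjusted p under 0.05, and 127 (0.651%) did not overlap. The interaction, the difference between the 2 hydroxychloroquine effects, also had 0 genes past the threshold (0%), with 985 (5.05%) at an unadjusted p under 0.05. Across genes, which are not independent, the 2 sets of differences had a correlation of 0.109. Of the 939 genes at an unadjusted p under 0.05 alone, 566 (60.3%) had the same sign beside BMS754807, against 53.5% of all genes.

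The genes of smallest p were not among the shared ones. Stk26 was at 0.39 ± 0.22 log2 (SE, n = 6 per group) and Angpt1 at 0.36 ± 0.24 beside BMS754807, with ranges that overlapped. Cth was at 0.08 ± 0.19. Of the 24 named genes 0 had an unadjusted p under 0.05 in the same direction there, beside 5.13% of all genes higher and 3.48% lower. With only 24 genes, a count of 0 lies near these shares. Mzf1 (-0.33 ± 0.14) and Atf7ip2 (-0.43 ± 0.17) had such a p in the opposite direction. Both Ifit genes had one in the same direction: Ifit3b was at -1.06 ± 0.45 and Ifit3 at -1.0 ± 0.44. Ifit3 spanned 7.09 to 9.36 (median 8.41) in combination tumours and 8.50 to 10.65 (median 9.28) in BMS754807 tumours. Oasl1 was at -0.03 ± 0.27 and Irf7 at -0.71 ± 0.36. Over the effector list 23 of 36 were lower and 13 higher, beside 50.5% and 49.3% of all genes, with a median of -0.16, and 3 lower and 1 higher had an unadjusted p under 0.05, beside 3.48% and 5.13% of all genes. BMS754807 tumour 6 had a score of 0.97 and the other 5 of its group -0.25 to 0.08. Without it 15 were lower and 21 higher with a median of 0.04. The median was -0.05 without combination tumour 3 and -0.27 without BMS754807 tumour 2. Without BMS754807 tumour 6 Ifit3b was at -0.86, Ifit3 at -0.74 and Irf7 at -0.38.

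In both comparisons 133 genes had an unadjusted p under 0.05. Of these 99 had the same direction, which is 10.5% of the 939 and 5.90% of the 1679, and 34 had opposite directions. Since 1 spread per gene serves both tests, genes of low spread are favoured in each. The 99 came from 19505 genes, and the number expected by chance was not worked out. List members among the 99 numbered 13, of 762 listed genes measured. Besides the Ifit genes they were Gaa (0.46 ± 0.12 beside BMS754807), Phgdh (0.36 ± 0.16), Herpud1 (0.28 ± 0.13), Sdf2l1 (0.56 ± 0.20), Egr1 (0.41 ± 0.18), Timp3 (0.61 ± 0.12), Tgfb3 (0.56 ± 0.12), Cnn1 (1.11 ± 0.34), Cd163 (-1.43 ± 0.54), Krt8 (-0.23 ± 0.09) and the trypsinogen gene Prss2 (-0.53 ± 0.21). Gaa spanned 13.61 to 14.09 in combination tumours and 13.16 to 13.64 in BMS754807 tumours. Stromal lists took the other sign there, with medians of -0.39 for fibroblast markers, -0.20 for matrix genes and -0.24 for collagens, and -0.18, -0.14 and -0.06 without BMS754807 tumour 6. Class I antigen presentation (0.08), inflammatory cytokines (0.15) and immediate-early genes (-0.008) also changed sign in their medians. So did skeletal muscle (-0.59) and B and plasma cell genes (-0.14). Lists that kept their sign included interferon-gamma targets (-0.10), Atf4 targets (0.11), endoplasmic reticulum genes (0.14), replication genes (0.13) and adipocyte genes (-1.36).

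**Figure D4:**
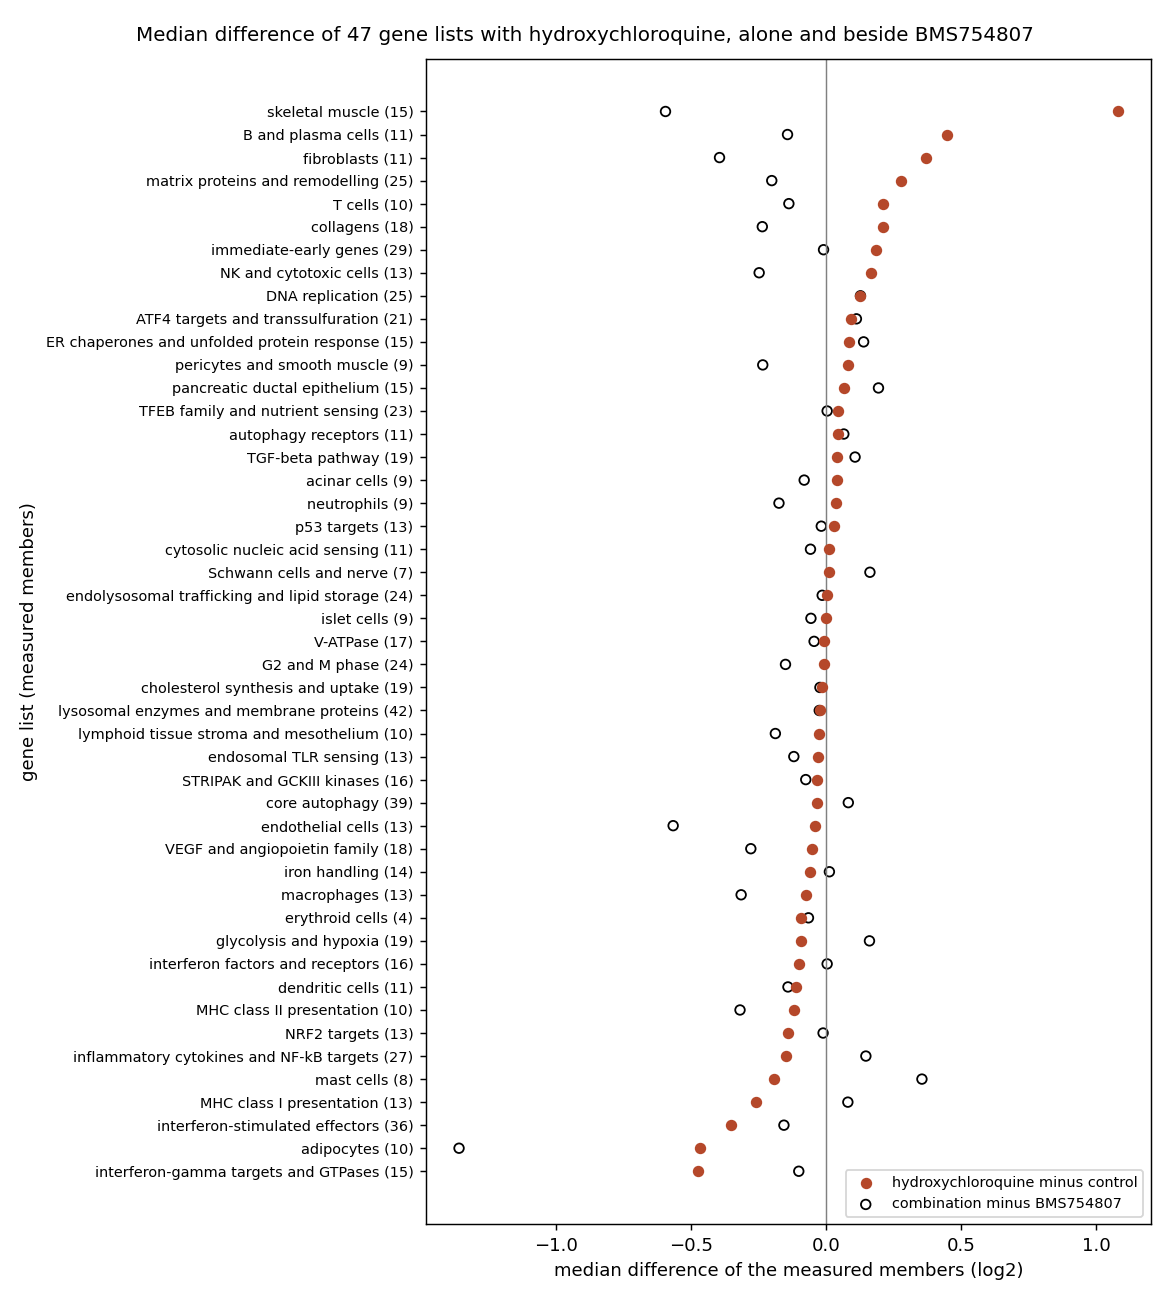
Median difference (log2) of the measured members of 47 gene lists, with the number measured in brackets: filled points are hydroxychloroquine minus control, open points combination minus BMS754807. Skeletal muscle lies at 1.08 and -0.59, interferon-stimulated effectors at -0.35 and -0.16, and lysosomal genes at -0.02 in both.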

How the data were processed

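The deposited table held 22206 probe sets on 24 arrays with 0 missing values, as log2 signal processed by the authors, for which the submitters' processing notes list Transcriptome Analysis Console 4.0. Normalization and log base are not given in the sources used here, and the base was taken as 2 from the range of the values (1.45 to 19.0). Symbols came from the platform annotation (19572 probe sets with 1 symbol, 0 with several, 2634 with none), each matched to RefSeq through its gene ID, and the probe set with the highest mean over 24 arrays stood for its gene, which dropped 67. Among probe sets without a symbol 0 passed the threshold and 128 had an unadjusted p under 0.05.

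All 24 arrays were fitted with 1 coefficient per group (lmFit and eBayes of limma 3.58.1, R 4.3.3, 20 residual degrees of freedom), with two-sided tests. A first comparison was hydroxychloroquine minus control, the second the combination minus BMS754807, and the interaction the second minus the first. Alternatives were the 12 arrays alone, a replicate block, a filter on level, rescaling, array weights, the array SD as covariate, another variance prior, other ways to choose probe sets and leaving out tumours. The number of arrays limits the precision.

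Genes and 47 lists (838 genes, 762 measured) were chosen with earlier results of these data known. Lists got no test. Named were 12 higher and 12 lower genes of smallest p (without predicted genes, receptor families and antigen receptor segments), up to 4 members of smallest p per list and any at an unadjusted p under 0.05. A set of genes of the lysosome, interferon and insulin-like growth factor pathways was always examined. Some genes of that set and of the lists are not analysed here. The fit was tested on simulated data with noise drawn separately for each gene and array, whereas genes in these tumours vary together.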

Additional observations from a re-analysis of the deposited data

Results flagged for a closer look

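Single tumours stood far from the other 5 of their group in 13 of 206 groups of values examined (6.31%), where chance gives about 1 in 20. The test was whether the gap to the nearest tumour as a share of the group's range exceeded Dixon's critical value for 6 samples. No gene had an interaction past the threshold (0 of 19505; 985 at an unadjusted p under 0.05).

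Among marker scores, hydroxychloroquine tumour 5 had a skeletal muscle score of 6.23, with -2.02 to 0.36 in the rest of its group. Hydroxychloroquine tumour 1 had a B and plasma cell score of 3.34, a T cell score of 2.04 and an adipocyte score of 2.30, where the other 5 reached at most -0.28, 0.06 and -0.47. Hydroxychloroquine tumour 4 had an endothelial score of 1.18 against at most 0.04 in the others. Control tumour 6 had a B and plasma cell score of 0.23 and a T cell score of 0.65, with at most -0.18 and 0.07 in the other controls.

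Among genes, Klf2 stood at 8.89 log2 in hydroxychloroquine tumour 1 and 7.43 to 7.73 in the others. Gorasp1 was low in hydroxychloroquine tumour 2 (8.26, others 8.79 to 9.09). Trnau1ap was at 9.59 in hydroxychloroquine tumour 4 (others 8.99 to 9.18) and Gpha2 at 2.75 in hydroxychloroquine tumour 6 (others 2.17 to 2.37). Control tumour 2 stood apart in Cth (4.78, others 5.54 to 5.80) and Eif4e3 (10.81, others 10.29 to 10.43).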

How the results depend on the processing

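The count of genes past the threshold was 0 in every setting tried except the replicate block, where it was 1: Stk26, at 1.21 ± 0.18 log2 and a limma adjusted p of 0.041. The labels do not say whether the numbers pair the tumours. As deviations from their group means, same-numbered hydroxychloroquine and control tumours correlated at -0.02 to 0.23 (median 0.07, against -0.01 for other numbers). Of the 6 tumours 1 correlated best with its own number. These correlations cannot settle whether same-numbered tumours share a source or batch. Genes at an unadjusted p under 0.05 numbered 484 of the 9752 genes above the median level and 815 to 1144 with 1 tumour left out. Without the 3 tumours richest in B cell or muscle transcripts they numbered 1308 of 19505 (6.71%). Genes without overlap, 30 in all, were 15 above the median level, 51 with a common median per array, 53 to 87 with 1 tumour left out and 376 without the 3 tumours richest in B cell or muscle transcripts (chosen after seeing the data), where fewer tumours make overlap rarer. Interferon-stimulated effectors were lower in 18 of 18 above the median level, a filter that leaves fewer of them, and in 32 to 35 of 36 with 1 tumour left out. Of 900 gene differences in other settings, 4 changed sign: Tlr7 (0.058 with array weights, 0.30 without the 3 tumours), Igf1r (0.072) and Angpt2 (0.31), the last 2 also without the 3 tumours. Leaving out 1 tumour changed the sign in 13 of 1008, all in genes whose difference was smaller than its SE: Tlr7 (-0.34 to 0.24), Angpt2 (-0.57 to 0.11), Igf1r (-0.14 to 0.055), Atf4 (-0.15 to 0.018), Lamp1 (-0.071 to 0.017) and Sqstm1 (-0.028 to 0.21). The cause of these sign changes was not tested. No other gene difference changed its side of the threshold. Leaving out tumours of the combination and BMS754807 groups in turn was also chosen after seeing the data.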
